A study of Caenorhabditis elegans with 4 samples.

Results

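The transcripts described here encode 9 proteins that build the meiotic chromosome axis and the synaptonemal complex of *C. elegans*: the axis proteins HTP-3, HIM-3, HTP-1, HTP-2 and REC-8 and the central region proteins SYP-1, SYP-2, SYP-3 and SYP-4. They were chosen by gene name as proteins of meiotic prophase whose mRNA reaches the embryo from the germline. That rule uses no measured value, but the choice was made with earlier results of these data known. All 9 were found among the 42048 genes of the deposited table, and all 9 passed the filter on low values described below. RNA was sequenced from 4 libraries of whole embryos. The 2 *meg-1 meg-2* libraries came from worms that carry *meg-1(vr10)*, a partial deletion of *meg-1*, and that were fed bacteria making *meg-2* double-stranded RNA. The 2 wild-type libraries came from worms of N2, the standard laboratory strain, whose bacteria carried the empty vector L4440. Both genotypes were grown on RNAi bacteria (HT115) from synchronized L1 larvae to adults, and their embryos were released by bleaching, so each library pools the embryos of a whole culture. The methods describe the harvest from large cultures as one of early embryos, from gravid adults in general and from young adults for these libraries, and no label gives the stages within a library. MEG-1 and MEG-2 are intrinsically disordered proteins of the germ plasm, and the RNA-seq comparison asked how the mRNA content of embryos changes without them.

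In meiotic prophase, each pair of sister chromatids is folded into loops along a protein axis. Cohesin complexes with the kleisin subunit REC-8 hold the sisters together, HTP-3 serves as the scaffold of the axis, and HTP-3 recruits HIM-3, HTP-1 and HTP-2, which like HTP-3 carry a HORMA domain. The SYP proteins then assemble between the axes of paired homologs as the central region of the synaptonemal complex, which holds homologs together and regulates crossover recombination. These proteins act in the adult germ line, where prophase takes place, whereas the cells of the embryo divide by mitosis. Oocytes load their mRNAs into the embryo, and these libraries do not show whether a read came from loaded mRNA or from mRNA made in the embryo. Since whole embryos were sequenced, fewer cells that hold a transcript and less of it per cell cannot be told apart.

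Levels are given in fpm, which are counted fragments after DESeq2 scaling for sequencing depth, and they were solved for each library from the deposited mean of its genotype. Within a genotype the libraries are named A and B, since a mean does not tell to which labelled replicate each belongs. The *meg-1 meg-2* libraries held 22816733 and 20662429 reads on genes, against 24894414 and 26017429 in the wild-type libraries. A count of 0 allows up to 3 reads, or 0.114 to 0.149 fpm depending on the library, for counting error only. The targeted genes were examined first. *meg-1* had 19 and 18 reads in *meg-1 meg-2*, against 1933 and 2423 in wild type. *meg-2*, the target of the RNAi, still had 141 and 172 reads in *meg-1 meg-2*, against 515 and 677 in wild type, and an effect of the *meg-1(vr10)* allele on *meg-2* cannot be told apart from RNAi. The wild-type libraries stood further apart than the *meg-1 meg-2* libraries. Over the 12734 genes tested, those with a mean of at least 1 fpm, the SD of the log2 difference between libraries was 0.17 within *meg-1 meg-2* and 0.33 within wild type. Embryo markers, given below, were present in every library, and markers of sperm and of the adult intestine were scarce. No list told RNA of the adult germ line apart from maternal RNA of embryos, so adult germ line in the libraries was not assessed. The summed level of 8 sperm markers was 5.53 and 5.13 fpm in the *meg-1 meg-2* libraries, against 4.64 and 5.02 fpm in the wild-type libraries. One of them, *gsp-3*, which encodes a sperm phosphatase, did not set the genotypes apart. It had 0 reads in both *meg-1 meg-2* libraries, against 1 and 0 reads in wild type. The summed level of 6 yolk protein markers of the adult intestine was 2.65 and 2.94 fpm in *meg-1 meg-2*, against 2.32 and 2.65 fpm in wild type.

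All 9 transcripts were more abundant in both *meg-1 meg-2* libraries than in either wild-type library. Their summed level was 334 and 332 fpm in the *meg-1 meg-2* libraries, against 206 and 250 fpm in the wild-type libraries, a mean of 333±1.82 fpm against 228±31.5 fpm (s.d., *n*=2 each) and a ratio of 1.46. The increase was modest for each gene, between 1.30-fold and 1.89-fold, and 8 of the 9 passed the test across all genes (limma on log2(fpm + 0.5), Benjamini-Hochberg adjusted *P* below 0.05), with *htp-2* as the exception. The smallest margin between the genotypes was 1.20-fold, the ratio of the lower *meg-1 meg-2* library to the higher wild-type library for *syp-2*, and the largest was 1.64-fold for *him-3*. The plot of levels by library shows this separation for each transcript.

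**Figure D1:**
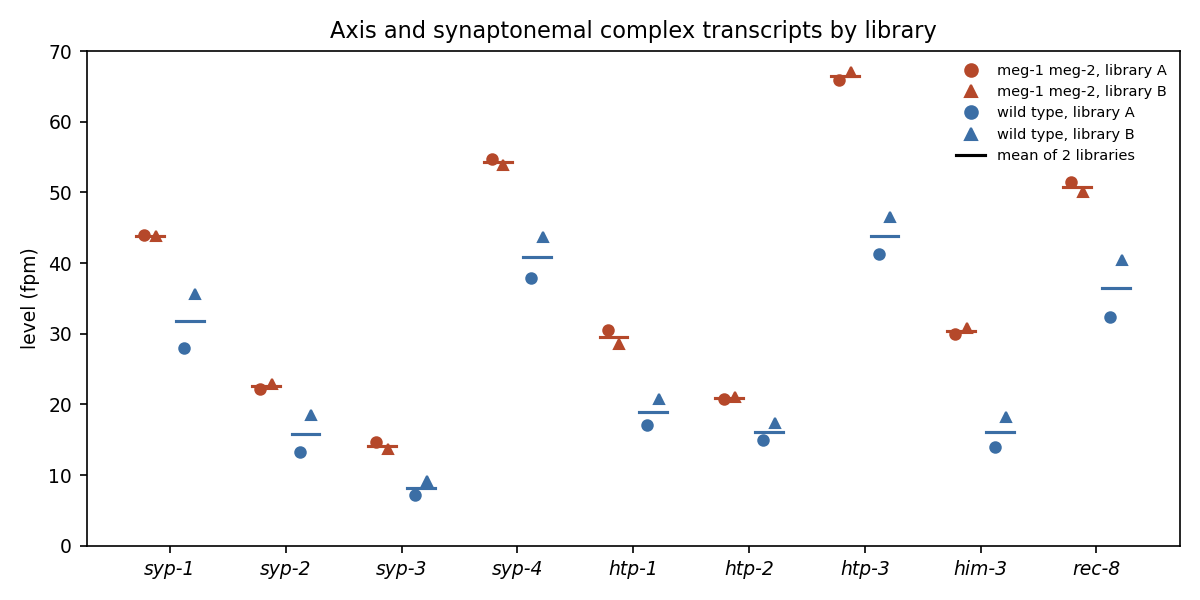
Level of each transcript in each library, in fpm on a linear axis from 0. Points are single libraries of *meg-1 meg-2* (left, red) and wild type (right, blue), circles for library A and triangles for library B, and the horizontal lines are the means of 2 libraries. For all 9 transcripts both *meg-1 meg-2* points lie above both wild-type points, and the wild-type points lie further from each other, with library B the higher one.

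The HORMA domain proteins of the axis included the largest change of the group. *him-3*, which encodes an axis protein needed for homolog synapsis and for crossovers to form between homologs, had 30.0 and 30.9 fpm (678 and 620 reads) in *meg-1 meg-2*, against 14 and 18.3 fpm (368 and 476 reads) in wild type. Its mean level was 30.4±0.612 fpm in *meg-1 meg-2* and 16.1±3.01 fpm in wild type (s.d., *n*=2 each), a ratio of 1.89. The log2 fold change was 0.91 (s.e. 0.17, 95% interval 0.58 to 1.24, limma adjusted *P*=1.69e-05), at percentile 99.1 of all genes tested. *htp-3*, the scaffold on which the other HORMA domain proteins assemble, was the most abundant of the 9 in fpm. It had 65.9 and 67.1 fpm (1490 and 1347 reads) in *meg-1 meg-2*, against 41.3 and 46.5 fpm (1085 and 1213 reads) in wild type. With means of 66.5±0.798 fpm in *meg-1 meg-2* and 43.9±3.71 fpm in wild type (s.d., *n*=2 each), its log2 fold change was 0.60 (s.e. 0.14, 95% interval 0.32 to 0.87, limma adjusted *P*=8.72e-04). For both genes the change was larger than the spread between libraries of either genotype.

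*htp-1* and *htp-2* are close paralogs that lie apart on chromosome IV, and how the counting divided reads that fit both is not stated, so their separate values are uncertain. *htp-1*, which has roles in pairing surveillance, axis assembly and the ordered loss of cohesion, had 30.6 and 28.5 fpm (691 and 572 reads) in *meg-1 meg-2*, against 17.1 and 20.8 fpm (449 and 543 reads) in wild type. Its log2 fold change was 0.63 (s.e. 0.16, 95% interval 0.31 to 0.95, limma adjusted *P*=0.00272). *htp-2*, whose product overlaps in function with HTP-1, had 20.8 and 21.1 fpm (470 and 424 reads) in *meg-1 meg-2*, against 14.9 and 17.3 fpm (392 and 452 reads) in wild type. This was the smallest difference of the 9, with a log2 fold change of 0.37 (s.e. 0.17, 95% interval 0.03 to 0.71, unadjusted *P*=0.0317, limma adjusted *P*=0.105), and it did not pass the test. The sum of both paralogs does not depend on how shared reads were divided between them, but would lack shared reads that the counting dropped. This sum was 51.4 and 49.6 fpm in the *meg-1 meg-2* libraries, against 32.0 and 38.2 fpm in the wild-type libraries, a ratio of the means of 1.44. Reads of *htp-1* over reads of *htp-2* stood at 1.47 and 1.35 in *meg-1 meg-2*, against 1.15 and 1.20 in wild type. The difference between the changes of the paralogs was not tested.

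*rec-8* encodes the kleisin that defines one class of meiotic cohesin. It had 51.5 and 50.1 fpm (1163 and 1006 reads) in *meg-1 meg-2*, against 32.3 and 40.5 fpm (850 and 1055 reads) in wild type, or 50.8±0.975 fpm and 36.4±5.74 fpm (s.d., *n*=2 each). Its log2 fold change was 0.48 (s.e. 0.15, 95% interval 0.19 to 0.77, limma adjusted *P*=0.0110). The lower *meg-1 meg-2* library was 1.24-fold above the higher wild-type library. Its increase was thus past the test and smaller than that of *him-3*, although the difference between these genes was not tested.

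All 4 central region transcripts rose in *meg-1 meg-2* embryos. SYP-1, a coiled-coil protein, spans part of the distance between the axes. *syp-1* had 44.0 and 43.8 fpm (995 and 879 reads) in *meg-1 meg-2*, against 27.9 and 35.6 fpm (734 and 929 reads) in wild type, with a log2 fold change of 0.47 (s.e. 0.15, 95% interval 0.17 to 0.77, limma adjusted *P*=0.0163). *syp-2*, whose product sits at the middle of the central region, had 22.2 and 22.9 fpm (502 and 461 reads) in *meg-1 meg-2*, against 13.2 and 18.5 fpm (347 and 483 reads) in wild type, with a log2 fold change of 0.52 (s.e. 0.17, 95% interval 0.17 to 0.86, limma adjusted *P*=0.0226). The wild-type libraries differed most for *syp-2*, by 1.40-fold. *syp-3*, the least abundant of the 9 in fpm, had 14.7 and 13.6 fpm (332 and 274 reads) in *meg-1 meg-2*, against 7.23 and 9.13 fpm (190 and 238 reads) in wild type. It had the largest change among the central region genes, with a ratio of 1.73 and a log2 fold change of 0.76 (s.e. 0.19, 95% interval 0.39 to 1.14, limma adjusted *P*=0.00192). *syp-4*, the most abundant of the central region genes in fpm, had 54.7 and 53.9 fpm (1236 and 1082 reads) in *meg-1 meg-2*, against 37.9 and 43.8 fpm (995 and 1141 reads) in wild type. Its change was the smallest among the 4, with a ratio of 1.33 and a log2 fold change of 0.41 (s.e. 0.14, 95% interval 0.13 to 0.69, limma adjusted *P*=0.0283). SYP-3 and SYP-4 are needed, like SYP-1 and SYP-2, for the central region to assemble at all.

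**Figure D2:**
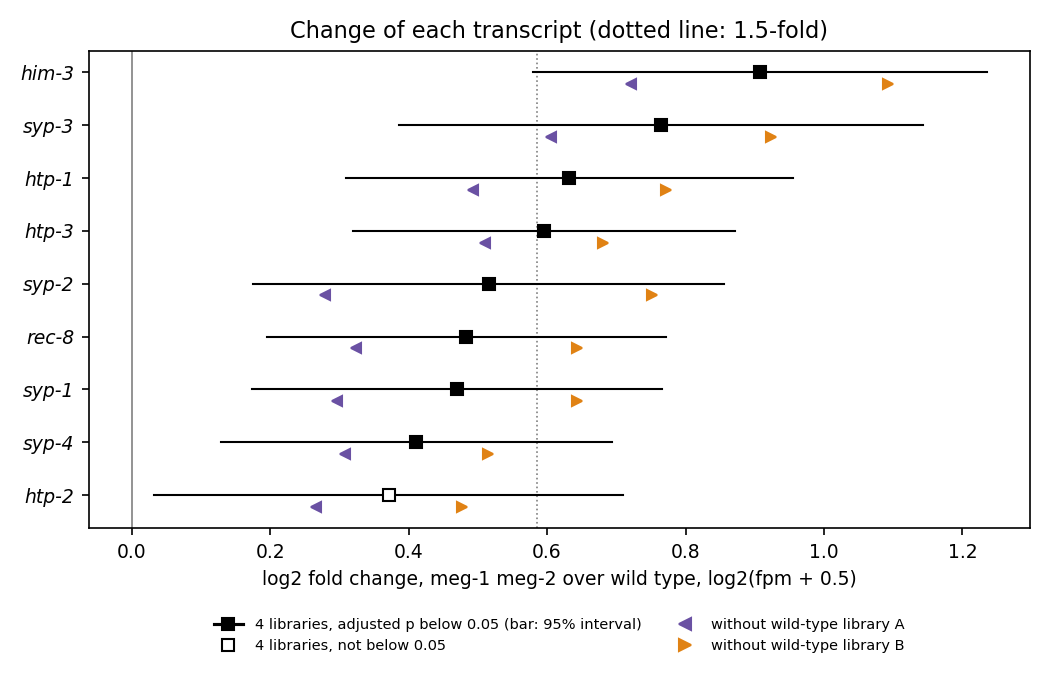
Change of each transcript as the log2 fold change on log2(fpm + 0.5), positive where *meg-1 meg-2* is higher, ordered from the largest change at the top. Squares with 95% intervals are from all 4 libraries (filled where the limma adjusted *P* is below 0.05), triangles are the values without wild-type library A or without wild-type library B, and the dotted line marks 1.5-fold. Every value lies above 0, from 0.27 for *htp-2* without wild-type library A to 1.09 for *him-3* without wild-type library B.

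These counts were set against those over all genes tested. Of the 12734 genes, 1760 were higher in *meg-1 meg-2* at the same threshold, which is 13.8%, and 998 were lower, which is 7.84%, against 8 of 9 higher and 0 of 9 lower here. With reads scaled to the library total in place of size factors the split over all genes was 1263 higher and 1160 lower, and 7 of the 9 passed. At a change of at least 1.5-fold with an unadjusted *P*-value below 0.05, 4 of the 9 (*him-3*, *syp-3*, *htp-1* and *htp-3*) were higher, against 5.53% of all genes tested. Both *meg-1 meg-2* libraries lay above both wild-type libraries for 9 of 9, against 35.4% of all genes tested. The median log2 fold change was 0.52 over the 9 and 0.01 over all genes tested. Each of the 9 lay at or above percentile 84.4 of the fold changes, with *htp-2* the lowest and *him-3* the highest. With 2 libraries against 2, an exact permutation test of a single gene cannot give a two-sided *P*-value below 0.333, so each call draws on the variance estimate that limma pools over genes.

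The calls depended on having both *meg-1 meg-2* libraries. A fit without 1 library takes its spread only from the genotype that keeps 2. That spread was wider in wild type (SD of the log2 difference 0.33) than in *meg-1 meg-2* (0.17), for all genes tested and not only for the 9. Without *meg-1 meg-2* library A or without library B, 0 of the 9 passed adjustment, when 27 genes in all were called higher in either case. Without library A the log2 fold changes of the 9 ran from 0.38 (*htp-2*) to 0.93 (*him-3*). Without library B they ran from 0.36 (*htp-2*) to 0.89 (*him-3*). The medians over all genes tested were 0.02 and 0.01. The smallest adjusted *P*-value among the 9 was that of *him-3* (0.313 without library A and 0.334 without library B, limma). The fold changes themselves moved little in these fits, with a median over the 9 of 0.54 without library A and 0.50 without library B. Leaving out a wild-type library had the opposite effect, with 9 of 9 called in either case, but calls over all genes also became more frequent, with 19.0% higher and 14% lower without wild-type library A and 35.9% higher and 25.9% lower without wild-type library B. The size of the change then depended on which wild-type library remained. Without wild-type library A the median log2 fold change was 0.32, with values from 0.27 (*htp-2*) to 0.72 (*him-3*). Without wild-type library B the median was 0.68, with values from 0.48 (*htp-2*) to 1.09 (*him-3*). Over all genes tested these medians were 0.01 and 0.04.

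That dependence followed from a difference between the wild-type libraries that all 9 transcripts shared. Library B exceeded library A by 1.13-fold for *htp-3* to 1.40-fold for *syp-2* in wild type. For 9 of 9 the 95% exact binomial interval of the ratio, which covers counting error only, lay above 1. The lowest limit was 1.01, for *htp-2*. This count was not made over all genes, and the intervals were set against 1, not against the median shift of all genes between these libraries. In *meg-1 meg-2*, the ratio of library B to library A ranged from 0.929 for *syp-3* to 1.03 for *syp-2*, and for 0 of 9 did this interval lie apart from 1. The sum of the 9 was 1.22-fold higher in wild-type library B than in library A. On the log2 scale the difference between the wild-type libraries (B minus A) had a median of 0.32 over the 9, against 0.10 over all genes tested, of which 60.3% were higher in library B. The sum in *meg-1 meg-2* was 1.62-fold that of wild-type library A and 1.33-fold that of wild-type library B.

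**Figure D3:**
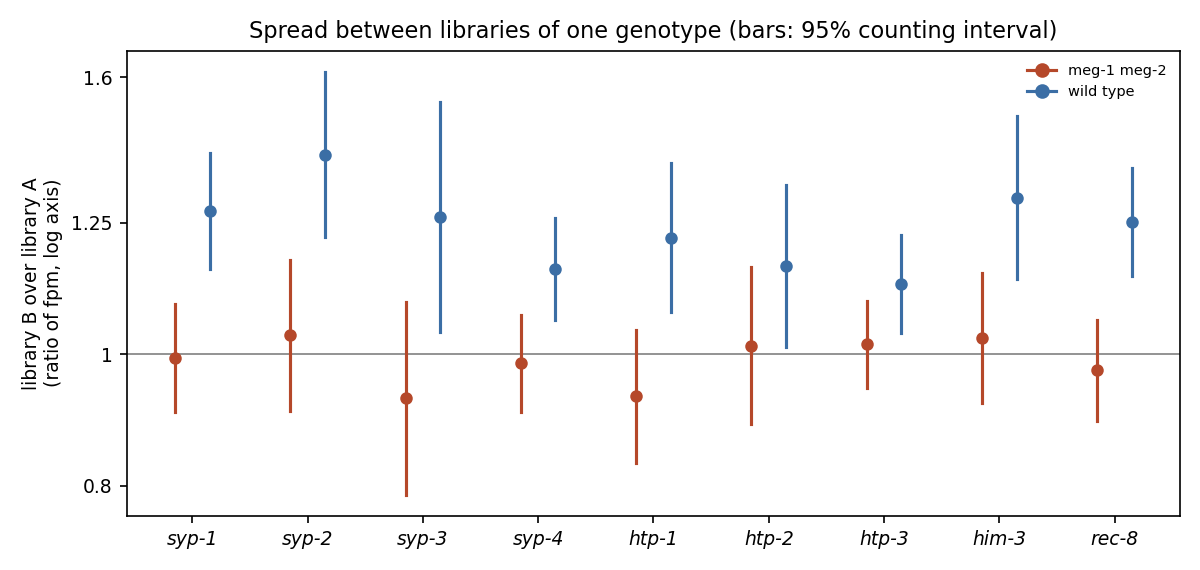
Ratio of library B to library A within each genotype, from fpm, on a log axis, with *meg-1 meg-2* at the left (red) and wild type at the right (blue) of each gene. Bars are 95% exact binomial intervals for counting error. The wild-type ratios lie between 1.13 and 1.40 with every interval above 1, whereas the *meg-1 meg-2* ratios lie between 0.929 and 1.03 with every interval spanning 1.

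The proportions of the 9 transcripts among each other differed modestly between the libraries, and *him-3* was not the only one whose share differed. Its share of their summed fpm was 8.97% and 9.30% in *meg-1 meg-2*, against 6.80% and 7.29% in wild type. Set against its scaffold, *him-3* stood at 0.455 and 0.460 of the *htp-3* level in *meg-1 meg-2*, against 0.339 and 0.392 in wild type. The libraries of the genotypes did not overlap in either measure. The shares of *syp-3* and *htp-1* were also higher in both *meg-1 meg-2* libraries, and those of *syp-1*, *syp-4*, *htp-2* and *rec-8* were lower. That of *syp-4* was 16.4% and 16.2% in *meg-1 meg-2*, against 18.4% and 17.5% in wild type. Only the shares of *syp-2* and *htp-3* overlapped. Shares of one sum are not independent, since a higher share of some transcripts lowers that of others. The transcripts with lower shares were themselves higher in fpm in both *meg-1 meg-2* libraries. How often shares fail to overlap in other sets of genes was not counted. The 4 central region transcripts together stood at 0.682 and 0.679 of the 5 axis transcripts in *meg-1 meg-2*, against 0.721 and 0.746 in wild type. *rec-8* over *htp-3* was 0.781 and 0.747 in *meg-1 meg-2*, against 0.783 and 0.870 in wild type, and these values overlapped. None of these ratios was tested.

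Levels of different genes were compared per length, as fpm per kb of the length given in the table (FPKM), which matches the coding length with the stop codon for 8 of the 9 genes, *him-3* being the exception. On this scale the transcripts lay close together, with the highest 1.76-fold and 1.79-fold above the lowest in the *meg-1 meg-2* libraries, against 1.94-fold and 2.13-fold in the wild-type libraries. In *meg-1 meg-2* the order began with *syp-2* (35.2±0.812 FPKM, s.d., *n*=2) and *him-3* (33.0±0.664). *htp-3*, *syp-1* and *syp-4* followed at 29.9 each and did not differ beyond their spread, and *htp-1* came after them at 27.9±1.40. *rec-8* (21.6±0.416) and *syp-3* (21.0±1.10) overlapped each other, and *htp-2* was lowest at 19.8±0.208. In wild type the order ran from *syp-2* (24.7±5.86) through *syp-4* (22.4±2.30), *syp-1* (21.6±3.70), *htp-3* (19.8±1.67), *htp-1* (17.9±2.50), *him-3* (17.5±3.26), *rec-8* (15.5±2.45) and *htp-2* (15.2±1.62) to *syp-3* (12.1±1.99). Neighbours in the wild-type order overlapped throughout, except *htp-2* and *syp-3*. This order depended on the length used. Per kb of all exons in WBcel235, chosen after the values were seen, *htp-3* (28.4±0.341), *syp-4* (26.6±0.285) and *him-3* (26.03±0.523) led in *meg-1 meg-2*, whereas *syp-2* stood at rank 5 (20.7±0.478) and *syp-1* was lowest (14.4±0.0619). *syp-4* (20.0±2.04) and *htp-3* (18.7±1.58) led in wild type on that scale, with *syp-2* at rank 5 (14.5±3.45), *syp-1* next to lowest (10.4±1.78) and *syp-3* lowest (8.76±1.44). The exons of *syp-1* are 3053 bp long, against 1470 bp in the table, and those of *syp-2* 1092 bp, against 642 bp, and which parts of a gene were counted is not stated. *him-3* ranked above its place in wild type, the sixth, on both scales in *meg-1 meg-2*.

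All 9 are protein-coding genes, and they lie on 3 chromosomes of the WBcel235 annotation, a build that differs from the ce10 build of the alignment. *htp-3* (4827072 to 4829791, plus strand), *syp-4* (6847511 to 6849923, plus strand) and *syp-3* (8663045 to 8664445, minus strand) are on chromosome I. *htp-1* (5390189 to 5391557, minus strand), *htp-2* (6419522 to 6420898, plus strand), *him-3* (6977508 to 6978765, plus strand) and *rec-8* (13349122 to 13353193, minus strand) are on chromosome IV. *syp-2* (5536487 to 5537717, plus strand) and *syp-1* (16404274 to 16407701, plus strand) are on chromosome V. Exons of 3 of the genes overlap those of a protein-coding neighbour. *syp-1* shares 517 bp with *F13A7.14* on the same strand, which had 52.6 and 52.0 fpm in the *meg-1 meg-2* libraries, against 35.2 and 39.6 fpm in the wild-type libraries (log2 fold change 0.48, limma adjusted *P*=0.0105). *syp-3* shares 61 bp with *mrt-1* on the opposite strand, a telomere maintenance gene with 29.2 and 26.6 fpm in the *meg-1 meg-2* libraries, against 15.1 and 19.0 fpm in the wild-type libraries (log2 fold change 0.70, limma adjusted *P*=0.00101). These neighbours therefore rose with the genes that they overlap. *him-3* shares 24 bp with *prkl-1* on the opposite strand, which did not rise and had 67.2 and 69.1 fpm in the *meg-1 meg-2* libraries, against 84.5 and 84.7 fpm in the wild-type libraries. The strand setting of the counting is not stated, and the part of reads from neighbours in the changes of *syp-1* and *syp-3* was not tested.

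Other genes of meiotic prophase were examined as 5 lists. Of 53 genes, 51 were matched in the table and all 51 were tested. Of these, 23 were higher and 28 did not pass the test (13.8% of all genes tested were higher). None was lower, either after adjustment or at an unadjusted *P*-value below 0.05 (limma), but without wild-type library A *skr-1* was called lower, at a log2 fold change of −0.16. The median log2 fold change was 0.38, with 49 of 51 values above 0 (50.5% of all genes tested). Of the 51, 43 genes were higher in both *meg-1 meg-2* libraries than in either wild-type library (35.4% of all genes tested). At a change of at least 1.5-fold with an unadjusted *P*-value below 0.05 (limma), 9 of the 51 were higher (5.53% of all genes tested). As with the axis and SYP genes, the calls were lost when *meg-1 meg-2* library A or B was left out, as were nearly all calls over all genes. Calls became more frequent without wild-type library A or B, and did so over all genes as well. The median of the 51 was 0.25 without wild-type library A and 0.52 without wild-type library B.

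Among the other proteins tied to the central region, 3 of 4 transcripts rose (13.8% of all genes tested were higher). No list was tested as a set. *syp-6*, which encodes a central region protein paralogous to SYP-5, had 135 and 126 fpm in the *meg-1 meg-2* libraries, against 71.7 and 91.6 fpm in the wild-type libraries (log2 fold change 0.69, limma adjusted *P*=3.22e-05). *syp-5* rose by 0.55 on the log2 scale. *skr-1* and *skr-2*, near-identical Skp1-related genes whose products are subunits of ubiquitin ligases and also parts of the central region, were the most abundant of this list per length. *skr-2* rose, with 89.5 and 84.8 fpm in the *meg-1 meg-2* libraries, against 52.6 and 66.0 fpm in the wild-type libraries (log2 fold change 0.56). *skr-1* had 188 and 187 fpm in *meg-1 meg-2*, against 196 and 210 fpm in wild type (log2 fold change −0.11, limma adjusted *P*=0.517). Reads that fit both *skr* genes make their separate values uncertain.

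Of 9 genes for cohesin and partners of the axis, 3 rose (13.8% of all genes tested were higher), with a list median of 0.35. *lab-1*, whose product protects cohesion on the long arms of bivalents, had the largest change of all 51 genes, with 20.0 and 21.0 fpm in the *meg-1 meg-2* libraries, against 8.71 and 12.2 fpm in the wild-type libraries (log2 fold change 0.95, limma adjusted *P*=3.35e-05). *pch-2*, which encodes an ATPase that remodels HORMA domain proteins, and *cmt-1*, which encodes its adaptor, had log2 fold changes of 0.44 and 0.56. Of the subunits that also act in mitosis, *him-1*, *smc-3* and *scc-3* did not pass the test. *him-1* (the SMC1 subunit) had 452 and 450 fpm in the *meg-1 meg-2* libraries, against 357 and 444 fpm in the wild-type libraries. *smc-3* and *scc-3* had log2 fold changes of 0.04 and 0.00, and their libraries overlapped between the genotypes. The cohesin release factor *wapl-1*, the most abundant of the list per length, stood at a log2 difference of 0.27 (limma adjusted *P*=0.103). *coh-3* and *coh-4*, near-identical genes for the other meiotic kleisins, had log2 fold changes of 0.35 and 0.40 (limma adjusted *P*=0.105 and 0.102).

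Of 11 genes for homolog pairing and meiotic kinases, 7 rose (13.8% of all genes tested were higher), with a list median of 0.48. They comprised all 4 zinc finger proteins that bind pairing centres, *him-8* (log2 fold change 0.48), *zim-1* (0.51), *zim-2* (0.44) and *zim-3* (0.65). *sun-1*, which encodes the inner nuclear membrane protein that links chromosome ends to the cytoskeleton, had 78.6 and 75.4 fpm in the *meg-1 meg-2* libraries, against 38.7 and 48.1 fpm in the wild-type libraries (log2 fold change 0.83, limma adjusted *P*=2.71e-06). Its outer membrane partner *zyg-12* had 183 fpm in each *meg-1 meg-2* library, against 150 and 184 fpm in the wild-type libraries. *plk-2*, a Polo-like kinase of pairing centres, rose by 0.52 on the log2 scale, and its paralog *plk-1* stood at a log2 difference of 0.30 (limma adjusted *P*=0.0666). The difference between these paralogs was not tested. *hal-3*, required for homolog alignment, rose by 0.75 on the log2 scale.

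Of 11 genes for meiotic double-strand breaks, 6 rose (13.8% of all genes tested were higher). The list median was 0.38, with every value above 0 (50.5% of all genes tested). *dsb-1*, which is required for breaks to be made, had 40.3 and 37.3 fpm in the *meg-1 meg-2* libraries, against 20.4 and 23.5 fpm in the wild-type libraries (log2 fold change 0.81, limma adjusted *P*=4.24e-05). *mre-11*, a nuclease that processes breaks, had 117 and 114 fpm in the *meg-1 meg-2* libraries, against 62.5 and 76.4 fpm in the wild-type libraries (log2 fold change 0.74). The others that rose were *dsb-2* (0.44), *xnd-1* (0.43), *com-1* (0.38) and *him-17* (0.36), a chromatin factor that was the most abundant of this list per length. *rad-50*, the partner of MRE-11, stood at a log2 difference of 0.28 (limma adjusted *P*=0.0910). Of 16 genes for recombination and crossovers, 4 rose (13.8% of all genes tested were higher), with the lowest list median, 0.30. These were *msh-5* (0.67), which marks crossover sites, *zhp-3* (0.65), a RING finger protein of the same sites, *rad-51* (0.44), the strand exchange recombinase, and the helicase gene *him-6* (0.42). *brd-1*, with *rad-51* the most abundant of this list per length, stood at a log2 difference of 0.18 (limma adjusted *P*=0.321).

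**Figure D4:**
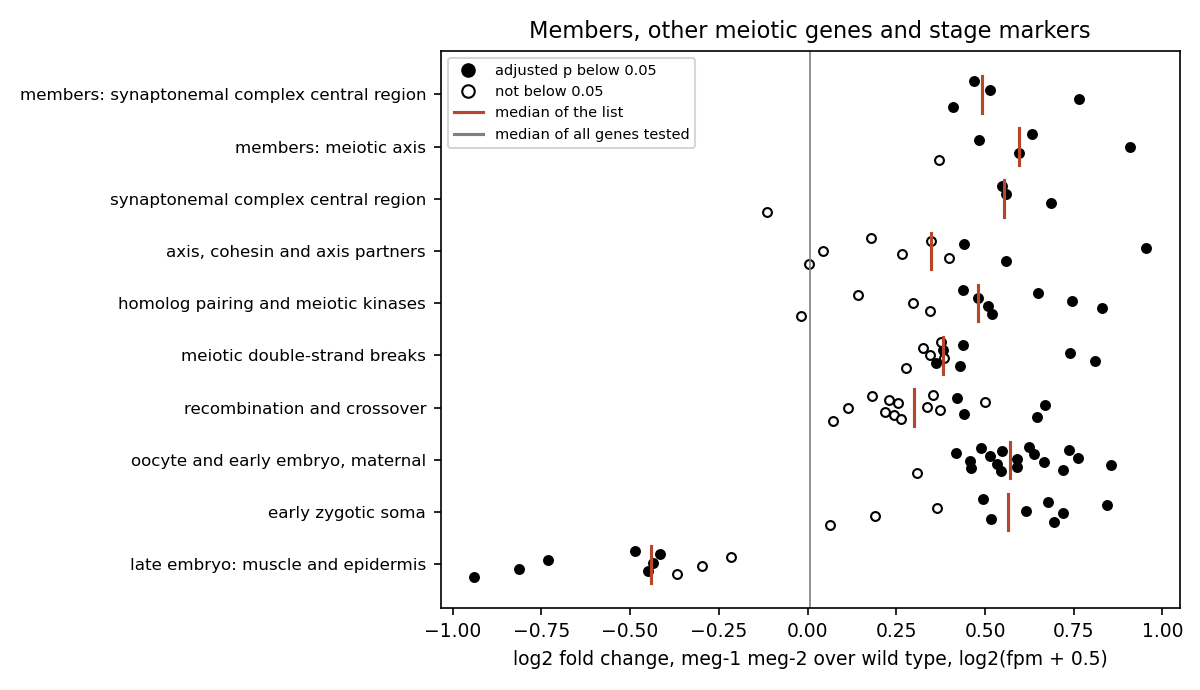
Log2 fold change on log2(fpm + 0.5), positive where *meg-1 meg-2* is higher, for each tested gene of the axis and SYP groups (top 2 rows), the 5 lists of other meiotic genes and 3 lists of stage markers. Filled points have a limma adjusted *P* below 0.05, red lines are list medians and the grey line is the median of all genes tested (0.01). The axis and SYP genes lie between 0.37 and 0.91, *him-3* being above the highest maternal marker (0.86), and the late embryo markers lie below 0.

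Markers of embryo stage moved with these transcripts. The maternal markers, 18 transcripts of oocytes and early embryos, were higher for 17 of 18, against 13.8% of all genes tested. Their median log2 fold change was 0.57. Their summed level was 2136 and 2138 fpm in the *meg-1 meg-2* libraries, against 1257 and 1599 fpm in the wild-type libraries. Among markers of early zygotic transcription in somatic cells, 7 of the 10 tested were higher (13.8% of all genes tested), with a median of 0.57. Their summed level over all 12 was 384 and 393 fpm in *meg-1 meg-2*, against 264 and 321 fpm in wild type. Among markers of late muscle and epidermis, 7 of the 10 tested were lower (7.84% of all genes tested) and 0 were higher, with a median of −0.44. Their summed level over all 12 was 4727 and 5020 fpm in *meg-1 meg-2*, against 7389 and 6337 fpm in wild type. The median change of the 9 axis and SYP transcripts (0.52) therefore lay near those of the maternal and early zygotic markers. The same markers set the wild-type libraries apart, with a median log2 difference (B minus A) of 0.36 for the maternal and −0.48 for the late markers, and the 9 transcripts lay at 0.32. As for the other lists, the calls of these markers were lost without *meg-1 meg-2* library A or without library B. The median log2 fold change of the maternal markers was then 0.58 without library A and 0.55 without library B. It was 0.54 and 0.62 for the early zygotic markers and −0.38 and −0.50 for the late markers. The part of embryo stage in the change of the axis and SYP transcripts was not tested.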

How the data were processed

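RNA of whole embryos was sequenced by the authors as 2 *meg-1(vr10) meg-2(RNAi)* and 2 wild-type libraries, made with a stranded total RNA kit after removal of rRNA. The authors used HISAT2 for alignment to ce10, HTSeq-count for counting on genes and DESeq2 for scaling. Versions, the annotation release and the strand setting are not given in the sources used here. The authors deposited 1 table of 42048 genes with a mean signal per genotype in fpm (reads divided by size factors and library size). The deposited FPKM equal the mean fpm over the length in bp, and are given here per kb. The 2 columns of the authors' own comparison (log2 fold change and adjusted *P*-value) were not used, and 0 further columns held values per sample. The labels call the second library of each genotype a biological replicate.

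Reads per library were solved from the means, each being the sum of whole reads of both libraries, weighted by the fpm of 1 read in each (relative rounding 8e-15). A single pair fitted 99.998% of *meg-1 meg-2* values and 100% of wild-type values. The table holds 0 spike-in rows.

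Genes with a mean of at least 1 fpm were tested with limma 3.58.1 in R 4.3.3 (lmFit, eBayes with trend) on log2(fpm + 0.5), which understates changes of low genes, with Benjamini-Hochberg adjustment over all 12734. A gene was called at an adjusted *P*-value below 0.05. The transcripts and lists were chosen with earlier results of these data known. Genes named are the 9 transcripts, *meg-1*, *meg-2*, every called gene of the 5 meiotic lists and the 2 most abundant per length of each; *smc-3*, *scc-3*, *coh-3*, *coh-4*, overlapping neighbours and *gsp-3* were named after their values were seen. *rec-1* was not matched, and *smc-1* is listed as *him-1*. Of the 42048 identifiers, 41759 matched WBcel235, used for coordinates, none of which was converted. Alternatives were other pseudocounts, filters and scalings, an FPKM scale, limma without trend, protein-coding genes only and each library left out. The FPKM scale was log2(FPKM + 0.002) with the limit of 0.002178852 FPKM that the methods give. Both numbers were applied to the deposited values per bp, not to the values per kb given here, so the pseudocount was not negligible for the 9 transcripts. Sequences are not shown.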

Additional observations from a re-analysis of the deposited data

How the results depend on the processing

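All 9 transcripts had a log2 fold change above 0 in 14 of 14 alternatives, and a gene stayed on its side of the threshold in 85 of 126 comparisons, lost its call in 39 and gained one in 2. The number of the 9 called (8) became 5 after quantile normalization, 4 in limma without trend, 2 on the FPKM scale, which had its own pseudocount and limit on low values (13060 genes tested), and 0 without a filter on low values, where 28209 genes were tested and 9 of 9 had an unadjusted limma *P*-value below 0.05. It ranged from 0 to 9 with 1 library left out. *him-3* ranged from 0.72 to 1.09 (adjusted *P* from 2.55e-08 to 0.334) and *htp-2* from 0.27 to 0.48 (0.000485 to 0.765). The number called among the 51 other meiotic genes (23) became 9 in limma without trend, 6 on the FPKM scale and 0 without a filter (24 at an unadjusted limma *P*-value below 0.05), and ranged from 0 to 47 with 1 library left out. Over all genes, 1760 higher and 998 lower became 654 and 332 without trend, 335 and 199 on the FPKM scale and 3 and 1 without a filter. With 1 library left out, higher calls ranged from 27 to 4566 and lower calls from 14 to 3296. Leaving out a library leaves 1 sample in its genotype, which is then assumed to vary like the other genotype. Why the filter, the FPKM alternative and the trend changed the calls was not tested. Median-ratio scaling over protein-coding genes was chosen after the data were seen, and 7 of the 9 passed under it (11.5% of all genes tested were called higher). The edgeR, DESeq2 and TMM alternatives were not run, since they were planned only for a deposited column that could itself be read as counts, and the table holds means of 2 libraries; whether they would make the same calls was not tested. No paired analysis was possible because the table gives genotype means, with no replicate number for any column. With 2 libraries per genotype, the spread of a single gene is poorly known, and the 190 to 332 reads of *syp-3* per library add counting error.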

Other observations

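Genes of cohesin that also act in mitosis were examined after the values of *rec-8* had been seen. *scc-1*, which encodes the mitotic kleisin, had 174 fpm in each *meg-1 meg-2* library, against 122 and 149 fpm in the wild-type libraries (log2 fold change 0.36, s.e. 0.13, limma adjusted *P*=0.0265). It passed the test, as *rec-8* did (0.48). *coh-1*, a further kleisin that is not meiotic, had 89.5 and 91.6 fpm in *meg-1 meg-2*, against 98.6 and 111 fpm in wild type (log2 fold change −0.21, limma adjusted *P*=0.238). The loader genes *pqn-85* and *mau-2* had log2 fold changes of 0.14 and 0.26, and *evl-14*, a cohesin-associated factor, had one of 0.17 (limma adjusted *P*=0.408, 0.146 and 0.307). Whether the kleisin genes differ in their change was not tested.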
